A study of Mus musculus with 6 samples.

Results

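The insulin-like growth factor (IGF) axis was followed through 10 genes: the ligand genes Igf1 and Igf2, the long non-coding RNA gene H19 beside Igf2, the receptor gene Igf1r, and the binding protein genes Igfbp2, Igfbp3, Igfbp4, Igfbp5, Igfbp6 and Igfbp7. They were taken by symbol from a deposited table of 55401 genes, and each symbol matched 1 row. The libraries were messenger RNA from cultures labelled as hepatic stellate cells, the liver pericytes that become myofibroblasts in culture. There were 3 libraries from S100a16+/- mice, which carry 1 disrupted allele of the calcium-binding protein gene S100a16, and 3 libraries from WT mice. Both genotypes were on the C57BL/6J background, and all cells were grown for 7 days in medium with fetal bovine serum. The labels give no age, and nothing in them ties a library to an animal, so p-values here describe only the spread among these samples, which may be technical.

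IGF-1 and IGF-2 are secreted peptides that act through the receptor tyrosine kinase encoded by Igf1r, which signals to growth and survival through insulin receptor substrates, PI3 kinase and AKT. Most secreted IGF is held by binding proteins that prolong its life and control its access to the receptor, and proteases release it by cutting them. In the mouse, H19 is expressed from the maternal allele and Igf2 from the paternal allele of a shared imprinted domain, and both are abundant in fetal liver and fall after birth.

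Library totals ran from 61979103 to 70896338 counts in S100a16+/- and from 65880770 to 76291481 in WT. S100a16, the targeted gene, had an FPKM (fragments per kilobase of gene, scaled to library size) of 18.0, 17.7 and 30.0 in S100a16+/- and 57.7, 58.8 and 56.8 in WT. S100a16+/- replicate 3 stood apart. Across genes, Pearson's r to the other S100a16+/- libraries was 0.930 and 0.929 for it, while r was 0.987 for S100a16+/- replicates 1 and 2 and 0.981 to 0.985 for pairs of WT libraries. It also carried female-type expression, with an Xist FPKM of 32.2 against at most 0.0323 in the other 5 libraries. The Y-linked gene Ddx3y had 0.0102 FPKM in it and 12.1 to 15.8 in those 5, which were male-type. The spread within S100a16+/- thus holds a difference of sex, and the part of sex in the levels below was not tested. Marker lists differed by library too. The 16 stellate and myofibroblast markers, led by Acta2 and Tagln, summed to 1223, 1187 and 180.0 FPKM in S100a16+/- replicates 1 to 3 and to 1023 to 1137 in WT. Within that list, the retinol acyltransferase gene Lrat stayed under 0.1 FPKM in every library. Des had 42.9, 43.8 and 2.78 FPKM in S100a16+/- and 13.0 to 16.9 in WT. The list did not move as 1 group: 1 of the 16 lay above WT in all 3 S100a16+/- libraries and 3 lay below. The 14 endothelial markers, led by Cdh5 and Oit3, summed to 767, 733 and 1838 FPKM in S100a16+/- and 1531 to 1680 in WT. The 14 hepatocyte markers, led by Alb and Ahsg, summed to 10.6, 10.4 and 550 FPKM in S100a16+/- and 77.6 to 119 in WT. The 13 mesothelial and portal fibroblast markers, led by Fbln2 and Upk3b, summed to 169, 163 and 47.5 FPKM in S100a16+/- and 159 to 180.1 in WT. The 16 macrophage and Kupffer cell markers, led by Lyz2 and Marco, summed to 17023, 18269 and 13350 FPKM in S100a16+/- and 10498 to 11066 in WT. The label says stellate cells, but these libraries also hold transcripts of the other liver cells, and macrophage markers had the largest sum in every library. Such sums do not give shares of cells. The levels below are those of mixed samples and not of stellate cells alone. In such bulk samples, fewer cells of a type and less RNA per cell cannot be told apart.

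None of the 10 genes passed the test over all 6 libraries, although 7 had FPKM groups that did not overlap: Igf1 lay above WT in all 3 S100a16+/- libraries, and Igf1r, H19, Igfbp4, Igfbp5, Igfbp6 and Igfbp7 lay below. Of the 7 genes that entered the test described below, 1 lay higher and 5 lower without overlap. Groups failed to overlap in 31.4% of all tested genes, 12.5% higher and 18.9% lower. In TMM-scaled counts, the groups of 6 of the 10 genes did not overlap (those of Igfbp6 did), against 30.1% of all tested genes (15.8% higher and 14.4% lower). The 6 include Igfbp5, which was not among the tested genes. The test was edgeR quasi-likelihood on counts with Benjamini-Hochberg adjustment over the 12766 genes that reached 1 FPKM in 3 or more libraries, and it called 4.46% of them. Of the 10 genes, 7 reached that minimum, and Igf2, Igfbp2 and Igfbp5 did not. Among the 7, 5 had an unadjusted p under 0.05 (71.4%), as did 22.0% of all tested genes. DESeq2 on the same genes called 1 of the 7 higher and 2 lower, and 14.9% of the 12711 genes it gave an adjusted p (8.85% higher and 6.0% lower). Without S100a16+/- replicate 3, edgeR called 1 of the 7 higher and 4 lower, where it called 32.3% of the 12601 genes tested (15.8% higher and 16.5% lower). That fit rests on S100a16+/- replicates 1 and 2 alone.

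**Figure D1:**
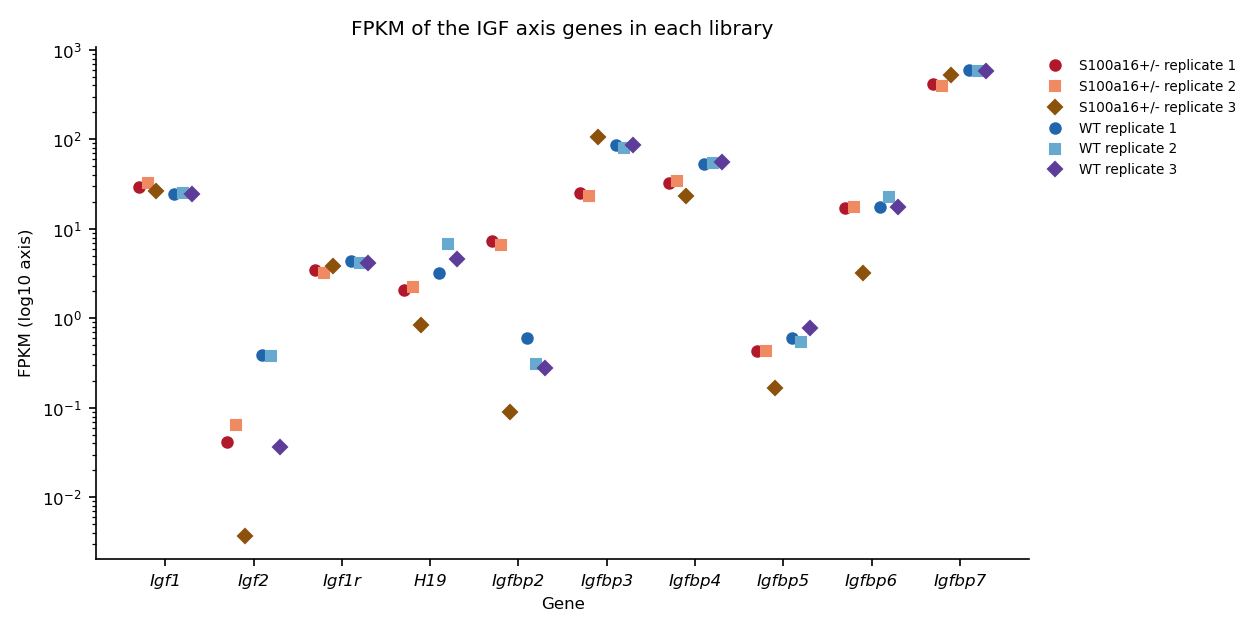
FPKM of the 10 IGF axis genes on a log10 axis, with 1 point per library and S100a16+/- libraries left of WT libraries. Igfbp7 is highest in every library, and S100a16+/- replicate 3 lies well away from S100a16+/- replicates 1 and 2 for Igf2, H19, Igfbp2, Igfbp3, Igfbp5 and Igfbp6.

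The levels, compared per gene length as FPKM, spanned a wide range. In WT the order of mean FPKM was Igfbp7 at 584, Igfbp3 at 84.6, Igfbp4 at 54.4, Igf1 at 24.7, Igfbp6 at 19.1, H19 at 4.88, Igf1r at 4.23, Igfbp5 at 0.640, Igfbp2 at 0.398 and Igf2 at 0.268. The WT ranges of H19 and Igf1r overlapped, as did those of Igfbp5 and Igfbp2 and those of Igfbp2 and Igf2, so these neighbours did not differ beyond their spread. By mean FPKM over the 6 libraries Igfbp7 ranked 61 among the 12766 tested genes, Igfbp3 614 and Igfbp4 1050.

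Igf1 (ENSMUSG00000020053, chromosome 10, 87858265 to 87937042, plus strand) encodes the ligand that growth hormone induces in hepatocytes and that macrophages and mesenchymal cells also make. Its FPKM was 29.4, 32.5 and 26.7 in S100a16+/- and 24.5, 25.0 and 24.6 in WT. All 3 S100a16+/- libraries lay above WT, by 8.23% to 31.9% of the WT mean, and the WT libraries were nearly level. The means were 29.6 ± 2.92 in S100a16+/- and 24.7 ± 0.248 in WT (n = 3 each, ± SD). At 0.31 (SE 0.09), the log2 change missed the threshold (edgeR adjusted p = 0.130). It passed with DESeq2 (log2 change 0.31, adjusted p = 0.0323) and without S100a16+/- replicate 3 (0.39, edgeR adjusted p = 0.00396). Macrophage markers, given above, also summed higher in all 3 S100a16+/- libraries, and 4 of the 16 passed the test as higher, where 2.85% of all tested genes did. They did not move as 1 group: 6 lay above WT in all 3 S100a16+/- libraries and 7 lay below WT in S100a16+/- replicates 1 and 2, with a median log2 ratio to the WT mean of -0.0021, 0.09 and 0.09 in S100a16+/- replicates 1 to 3. Hepatocyte markers summed lowest in S100a16+/- replicates 1 and 2. The part of either cell type in the Igf1 level was not tested.

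The 5 genes whose profile over the 6 libraries was most like that of Igf1, among 7427 others with a mean FPKM of at least 5, were Actr2, Lipo3, Tbc1d13, Gltp and Alg2. Likeness was the root mean square difference between log2 CPM (counts scaled to library size) profiles, each centred on its own mean, and it was 0.0257 for Actr2 and 0.0320 for Alg2. Actr2, which encodes a subunit of the actin-nucleating ARP2/3 complex, had 65.0, 68.8 and 57.2 FPKM in S100a16+/- and 54.6, 54.2 and 52.8 in WT. Gltp, the glycolipid transfer protein gene, had 102, 109 and 90.4 FPKM in S100a16+/- and 84.6, 88.7 and 82.5 in WT. Like Igf1, both were highest in S100a16+/- replicate 2 and, within S100a16+/-, lowest in replicate 3. This order follows from how the genes were chosen and is not a separate observation.

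Igf2 (ENSMUSG00000048583, chromosome 7, 142650766 to 142666816, minus strand) encodes the fetal growth ligand. Its row held 20, 30 and 2 counts in S100a16+/- and 166, 185 and 17 in WT. WT replicate 3 therefore lay among the S100a16+/- libraries, and the groups overlapped. The FPKM difference had an exact two-sided permutation p of 0.3 on log2(FPKM + 1), where 0.1 is the smallest p that 3 against 3 libraries allow. In the edgeR fit with no FPKM filter the log2 change was -2.73 (SE 1.10, adjusted p = 0.381).

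The low Igf2 counts had a counterpart in a neighbouring row. Gm49394 (chromosome 7, 142650769 to 142669942, minus strand), a predicted protein-coding gene on the same strand, spans nearly all of Igf2. It held 245, 140 and 44 counts in S100a16+/- and 0, 0 and 95 in WT. In each library 1 of the rows held most of the counts. Igf2 took 7.55%, 17.6% and 4.35% of the summed counts in S100a16+/- replicates 1 to 3, against 100%, 100% and 15.2% in WT replicates 1 to 3.

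Summed over both rows, the locus had 265, 170 and 46 counts in S100a16+/- and 166, 185 and 112 in WT. Scaled to depth, this was 2.38 ± 1.56 CPM in S100a16+/- and 2.14 ± 0.539 CPM in WT (n = 3 each, ± SD). The groups overlapped fully, with S100a16+/- replicate 1 the highest and S100a16+/- replicate 3 the lowest library. The log2 change of the sum was 0.15 (SE 0.57, edgeR adjusted p = 0.940), opposite in sign to that of the Igf2 row, and 0.57 without S100a16+/- replicate 3 (edgeR adjusted p = 0.329). Counts of a locus shared by overlapping models on 1 strand can be given to either, so the level of Igf2 itself is uncertain in these data.

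**Figure D2:**
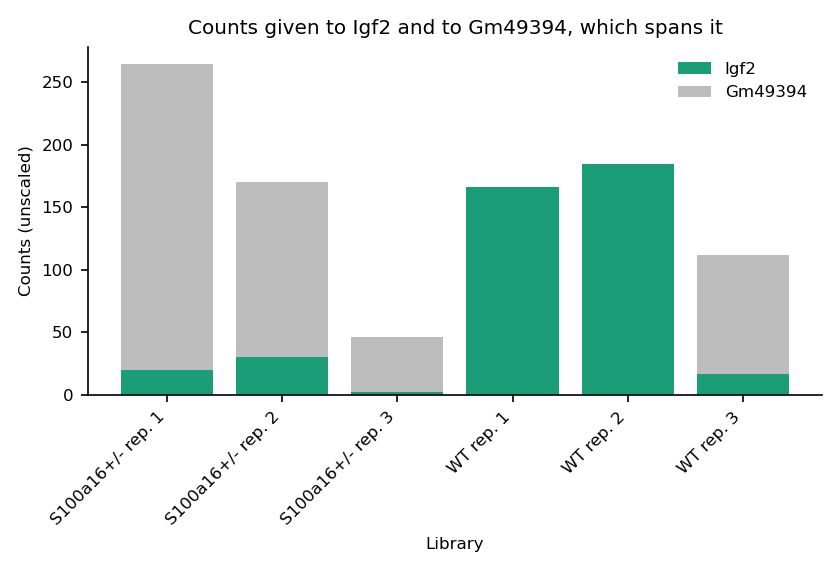
Unscaled counts in the rows Igf2 (green) and Gm49394 (grey), stacked, in each library, with S100a16+/- libraries left of WT libraries. The Igf2 row holds all of the summed counts in WT replicates 1 and 2 and 4.35% to 17.6% in the other 4 libraries.

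H19 (ENSMUSG00000000031, chromosome 7, 142575529 to 142578143, minus strand) is a long non-coding RNA and the host of the microRNA gene Mir675. Its FPKM was 2.09, 2.26 and 0.847 in S100a16+/- and 3.22, 6.84 and 4.60 in WT. The groups did not overlap, and the spread was wide on both sides: 1.43 log2 units among the S100a16+/- libraries and 1.07 among WT. The means were 1.73 ± 0.769 in S100a16+/- and 4.88 ± 1.83 in WT (n = 3 each, ± SD), a level in S100a16+/- at 35.4% of that in WT. The log2 change was -1.43 (SE 0.46, edgeR adjusted p = 0.147), and it passed with DESeq2 (-1.43, adjusted p = 0.0151). Without S100a16+/- replicate 3 it was -1.10 and did not pass (edgeR adjusted p = 0.0515). In that library stellate and myofibroblast markers were low as well, with a median log2 ratio to the WT mean of -2.36, beside -2.47 for H19, and mesothelial and portal fibroblast markers had a median of -2.90. In S100a16+/- replicates 1 and 2 the stellate list had medians of 0.29 and 0.24 and the mesothelial list -0.04 and -0.09, and H19 stood at -1.16 and -1.03; the part of these cells in the H19 level was not tested. The Mir675 row held at most 2 counts in any library, and mature microRNA is not captured by oligo(dT) selection.

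Igf1r (ENSMUSG00000005533, chromosome 7, 67952827 to 68233668, plus strand), the receptor gene, had an FPKM of 3.46, 3.25 and 3.85 in S100a16+/- and 4.34, 4.17 and 4.18 in WT. All 3 S100a16+/- libraries lay below WT. The means were 3.52 ± 0.308 in S100a16+/- and 4.23 ± 0.0924 in WT (n = 3 each, ± SD). The log2 change of -0.22 (SE 0.07) missed the threshold (edgeR adjusted p = 0.164); with S100a16+/- replicate 3 left out it was -0.27 and passed (edgeR adjusted p = 0.0120). With Igf1 higher and Igf1r lower, the ratio of Igf1 FPKM to Igf1r FPKM was 8.52, 10.02 and 6.93 in S100a16+/- and 5.65, 5.98 and 5.87 in WT. This ratio describes transcripts and combines values already given for each gene.

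**Figure D3:**
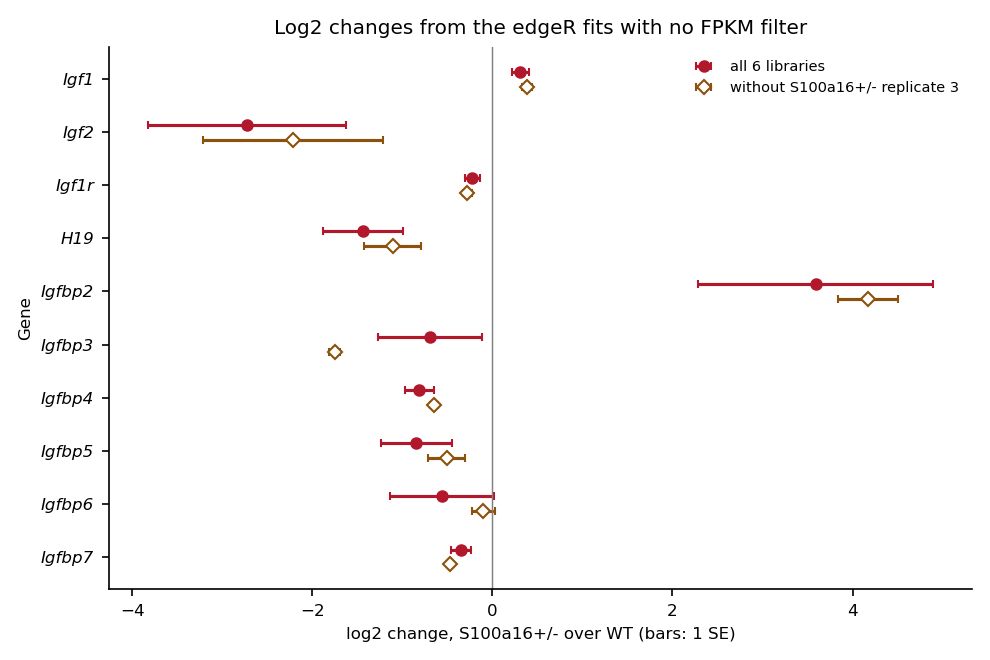
Log2 change (S100a16+/- over WT) of each gene with 1 SE, from edgeR fits with no FPKM filter, for all 6 libraries (filled circles) and without S100a16+/- replicate 3 (open diamonds). Igf1 and Igfbp2 lie above 0 and the other 8 genes below it in both fits, and Igfbp3 moves to -1.75 when that library is left out; the Igf2 value is for its own row, and lies above 0 when Gm49394 is added.

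Among the binding proteins, Igfbp2 and Igfbp3 split the S100a16+/- libraries, while Igfbp4, Igfbp5 and Igfbp7 were lower in all 3. The RefSeq promoter windows (GRCm38.p6, 250 bases before to 50 after the annotated start) of Igfbp2, Igfbp3 and Igfbp4 are shown because Igfbp2 and Igfbp3 differed between S100a16+/- replicate 3 and S100a16+/- replicates 1 and 2 in opposite directions, and Igfbp4 came closest to the test's threshold. For Igfbp2, the nearer of its 2 windows is shown. Capitals mark the motif TATAAA, its variant TATATA, and the GC box GGGCGG, each searched on both strands.
Igfbp2 (chr1:72824230-72824529, plus strand): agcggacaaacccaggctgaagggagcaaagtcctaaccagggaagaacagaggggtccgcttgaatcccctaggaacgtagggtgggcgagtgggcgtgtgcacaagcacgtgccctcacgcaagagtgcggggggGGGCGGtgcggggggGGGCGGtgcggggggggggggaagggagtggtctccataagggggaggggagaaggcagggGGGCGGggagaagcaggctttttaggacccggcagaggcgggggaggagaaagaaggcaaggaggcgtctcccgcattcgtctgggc
Igfbp3 (chr11:7213874-7214173, minus strand): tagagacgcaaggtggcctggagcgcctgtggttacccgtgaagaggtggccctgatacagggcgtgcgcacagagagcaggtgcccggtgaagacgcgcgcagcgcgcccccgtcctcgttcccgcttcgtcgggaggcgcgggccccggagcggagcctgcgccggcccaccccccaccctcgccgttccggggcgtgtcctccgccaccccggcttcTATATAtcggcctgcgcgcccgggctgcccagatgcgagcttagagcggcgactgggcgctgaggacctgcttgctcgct
Igfbp4 (chr11:99040994-99041293, plus strand): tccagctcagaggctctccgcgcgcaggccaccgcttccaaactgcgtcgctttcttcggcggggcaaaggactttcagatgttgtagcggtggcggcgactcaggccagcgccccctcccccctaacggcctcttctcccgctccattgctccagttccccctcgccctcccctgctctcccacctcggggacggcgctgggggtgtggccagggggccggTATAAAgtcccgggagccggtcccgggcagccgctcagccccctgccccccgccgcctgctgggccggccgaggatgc
Igfbp2 held 3 GGGCGG matches and neither TATA motif, Igfbp3 held 1 TATATA and Igfbp4 held 1 TATAAA. Over all 32851 promoter windows in the table, 35.7% held GGGCGG, 13.6% TATAAA and 5.67% TATATA. Promoter windows were found for 9 of the 10 genes.

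Igfbp2 (ENSMUSG00000039323, chromosome 1, 72824503 to 72852474, plus strand) encodes a secreted binding protein known from liver and fetal tissues. Its FPKM was 7.33, 6.54 and 0.0891 in S100a16+/- and 0.604, 0.310 and 0.280 in WT, from 1065, 940 and 12 counts in S100a16+/- and 82, 49 and 43 in WT. S100a16+/- replicates 1 and 2 reached 1841% and 1643% of the mean over WT libraries, while S100a16+/- replicate 3 was below every WT library. The means were 4.65 ± 3.97 in S100a16+/- and 0.398 ± 0.179 in WT (± SD over 3 libraries each; exact two-sided permutation p = 0.4 on log2(FPKM + 1)). In the edgeR fit with no FPKM filter, which called 0.858% of 28336 genes, the log2 change was 3.59 (SE 1.30, adjusted p = 0.325). Without S100a16+/- replicate 3, the fit with no FPKM filter gave 4.17 (SE 0.33, edgeR adjusted p = 0.000953), and it called 13.9% of 27770 genes (6.51% higher and 7.35% lower). Of the hepatocyte markers, Alb had 4.81, 5.52 and 242 FPKM in S100a16+/- replicates 1 to 3 and 42.9 to 64.6 in WT, and the part of hepatocytes in the Igfbp2 level was not tested.

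Igfbp3 (ENSMUSG00000020427, chromosome 11, 7206086 to 7213923, minus strand), which encodes the main carrier of IGF in serum, had the reverse pattern. Its FPKM was 25.2, 23.0 and 105 in S100a16+/- and 86.6, 79.6 and 87.5 in WT. S100a16+/- replicates 1 and 2 were at 29.8% and 27.2% of the WT mean, and S100a16+/- replicate 3 was the highest of the 6 libraries, at 124%. The means were 51.1 ± 46.8 in S100a16+/- and 84.6 ± 4.31 in WT (n = 3 each, ± SD), and the log2 change was -0.69 (edgeR adjusted p = 0.569, SE 0.60). With S100a16+/- replicate 3 left out it was -1.75 (edgeR adjusted p = 7.22e-05, SE 0.07). Endothelial markers were split in the same order, with a median log2 ratio to the WT mean of -1.09, -1.11 and 0.08 in S100a16+/- replicates 1 to 3, beside -1.69, -1.81 and 0.34 for Igfbp3. The endothelial cadherin gene Cdh5 had 290, 283 and 930 FPKM in S100a16+/- and 628 to 698 in WT. These markers did not move as 1 group: 10 of the 14 lay below WT in S100a16+/- replicates 1 and 2. Oit3, the other leading marker, was lowest in S100a16+/- replicate 3, with 181, 170 and 74.2 FPKM in S100a16+/- and 155 to 172 in WT. The part of endothelial cells in the Igfbp3 level was not tested.

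Igfbp4 (ENSMUSG00000017493, chromosome 11, 99041244 to 99054392, plus strand), whose product inhibits IGF action until a protease cuts it, had an FPKM of 32.7, 34.0 and 23.1 in S100a16+/- and 52.6, 54.4 and 56.1 in WT. All 3 S100a16+/- libraries were below WT, at 42.5% to 62.5% of the WT mean. The means were 30.0 ± 5.97 in S100a16+/- and 54.4 ± 1.74 in WT (n = 3 each, ± SD). Its log2 change of -0.81 (SE 0.16) had the smallest adjusted p of the 7 tested genes and missed the threshold (edgeR adjusted p = 0.0557). It passed with library totals in place of TMM scaling (-0.86, edgeR adjusted p = 0.0418), with DESeq2 (-0.81, adjusted p = 0.000255) and with limma on log2(FPKM + 1) (-0.86, adjusted p = 0.0446). It also passed without S100a16+/- replicate 3 (-0.64, edgeR adjusted p = 0.000372), and without any other library it did not (edgeR adjusted p from 0.128 to 0.215). Its log2 ratio to the WT mean was -0.67, -0.61 and -1.21 in S100a16+/- replicates 1 to 3, and the part of stellate or endothelial cell content in this level was not tested.

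Igfbp7 (ENSMUSG00000036256, chromosome 5, 77349240 to 77408041, minus strand) encodes a secreted protein of the family with low affinity for IGF. Its FPKM was 414, 396 and 522 in S100a16+/- and 591, 584 and 576 in WT. All 3 S100a16+/- libraries were below WT, with S100a16+/- replicate 3 nearest to WT at 89.4% of the WT mean. The means were 444 ± 68.2 in S100a16+/- and 584 ± 7.51 in WT (n = 3 each, ± SD). The log2 change was -0.35 (SE 0.11, edgeR adjusted p = 0.152), and -0.46 without S100a16+/- replicate 3 (edgeR adjusted p = 0.000600). The antisense neighbour Polr2b overlaps Igfbp7 and had 11.9% as many counts. The sources used here do not give whether counting was stranded, so the Igfbp7 count is uncertain by that overlap.

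Igfbp6 and Igfbp5 were lowest in S100a16+/- replicate 3. Igfbp6 (ENSMUSG00000023046, chromosome 15, 102144362 to 102149511, plus strand), whose product prefers IGF-2 over IGF-1, had an FPKM of 16.9, 17.4 and 3.23 in S100a16+/- and 17.5, 22.4 and 17.5 in WT. S100a16+/- replicates 1 and 2 lay just under the lowest WT library in FPKM but above WT replicates 1 and 3 in TMM-scaled counts, and S100a16+/- replicate 3 was at 16.9% of the WT mean. Its log2 change was -0.55 (SE 0.60, edgeR adjusted p = 0.650), and -0.09 without S100a16+/- replicate 3 (edgeR adjusted p = 0.637). Igfbp5 (ENSMUSG00000026185, chromosome 1, 72857932 to 72874884, minus strand), a binding protein that attaches to extracellular matrix, had an FPKM of 0.429, 0.436 and 0.166 in S100a16+/- and 0.605, 0.540 and 0.776 in WT. These groups did not overlap (exact two-sided permutation p = 0.1 on log2(FPKM + 1), the smallest possible), and the log2 change with no FPKM filter was -0.84 (SE 0.40, edgeR adjusted p = 0.458). Beside both genes, Acta2, the smooth-muscle actin gene of myofibroblasts, had 489, 470 and 48.0 FPKM in S100a16+/- and 388 to 437 in WT, and the mesothelial marker gene Upk3b had 41.1, 43.3 and 4.87 FPKM in S100a16+/- and 33.7 to 50.0 in WT. Neither marker list moved as 1 group. In all 3 S100a16+/- libraries, 1 of the 16 stellate markers lay above WT and 3 lay below. Of the 13 mesothelial and portal fibroblast markers, 1 lay above and 3 below. Fbln2, the other leading marker of that list, had 62.5, 60.6 and 33.1 FPKM in S100a16+/- and 65.8 to 69.1 in WT. The part of stellate or mesothelial cell content in these levels was not tested.

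**Figure D4:**
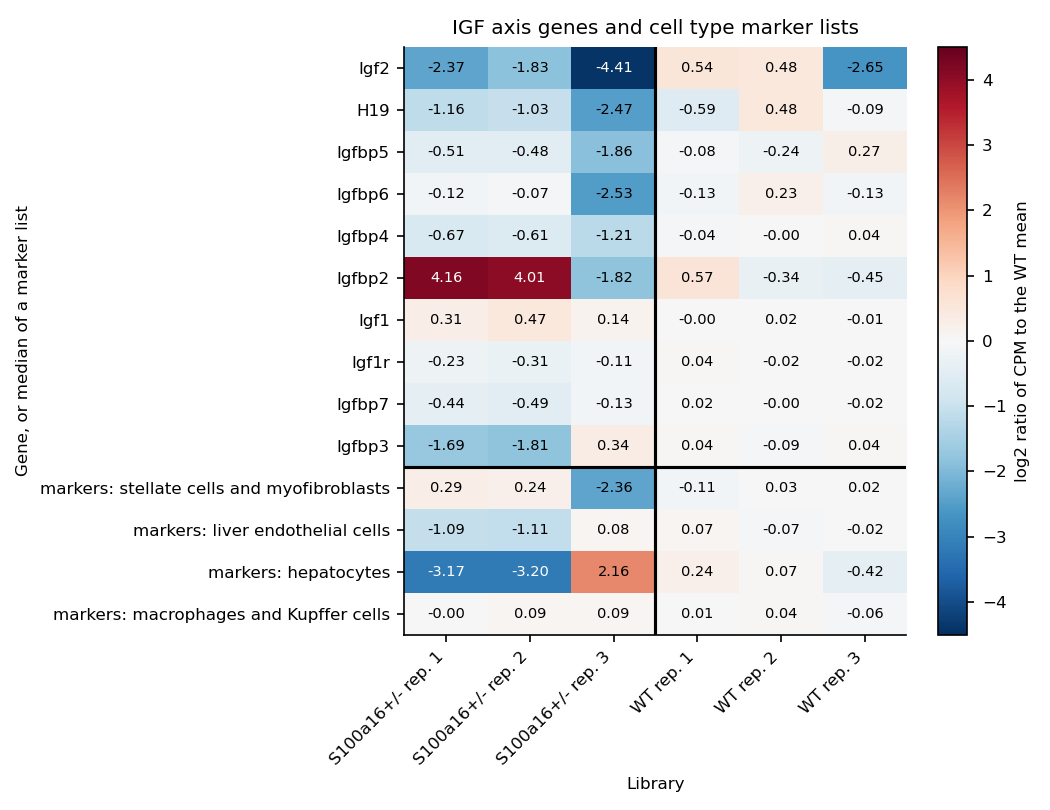
Log2 ratio of CPM to the WT mean for each IGF axis gene (rows above the line), and the median of this ratio over the tested markers of 4 cell types (rows below the line), with S100a16+/- libraries left of WT libraries. In S100a16+/- replicate 3, H19 and Igfbp6 stand at -2.47 and -2.53 beside stellate markers at -2.36; in S100a16+/- replicates 1 and 2, Igfbp3 stands at -1.69 and -1.81 beside endothelial markers at -1.09 and -1.11.

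As a sum, Igfbp2 to Igfbp7 reached 497, 478 and 654 FPKM in S100a16+/- and 749, 741 and 738 in WT. Igfbp7 made up 83.4%, 82.9% and 79.9% of that sum in S100a16+/- and 78.0% to 78.9% in WT. Without Igfbp7 the sum was 82.6, 81.4 and 132 FPKM in S100a16+/- and 158, 157 and 162 in WT. Both sums, which leave out Igfbp1, were lower in all 3 S100a16+/- libraries. Single genes did not all follow: Igfbp2 lay above WT in S100a16+/- replicates 1 and 2, and Igfbp3 in S100a16+/- replicate 3. The makeup differed within S100a16+/-. Of the whole sum, Igfbp2 was 1.48%, 1.37% and 0.0136% in S100a16+/- replicates 1 to 3, against 0.0379% to 0.0807% in WT. Igfbp3 was 5.07%, 4.82% and 16.1% in S100a16+/- replicates 1 to 3, against 10.7% to 11.8% in WT.

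Other genes of the pathway were read off the same fit. Of 37 receptor, adaptor and downstream signalling genes, 32 were tested, 1 rose and none fell. Over all tested genes 2.85% rose and 1.61% fell, or 364 and 206 genes (282 and 252 with library totals in place of TMM scaling). An unadjusted edgeR p under 0.05 was found for 7 of the 32, and for 22.0% of all tested genes. The list's median log2 change was -0.04, beside 0.00 over all tested genes. The gene that rose was Igf2r, the mannose-6-phosphate receptor that takes IGF-2 to the lysosome for breakdown. Its FPKM was 37.1, 36.5 and 29.4 in S100a16+/- and 21.7, 22.8 and 22.5 in WT, with no overlap, and the log2 change was 0.67 (edgeR adjusted p = 0.0377, SE 0.11). Without S100a16+/- replicate 3 it was 0.79 (edgeR adjusted p = 0.000122), and 5 genes of the list were higher and 7 lower, where 15.8% and 16.5% of all tested genes were. The insulin receptor substrate gene Irs2 and the growth hormone receptor gene Ghr missed the threshold, with edgeR adjusted p-values of 0.0692 and 0.0672 at log2 changes of -0.69 and -0.32, and both passed without that library (-0.55 and -0.37, edgeR adjusted p = 0.00798 and 0.00268). For Akt1 and Mtor the log2 change was -0.12 and 0.03 (edgeR adjusted p = 0.293 and 0.886).

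Of 23 genes for other binding proteins, binding protein proteases and their regulators, 11 were tested, 1 rose and 1 fell. Over all tested genes, 2.85% rose and 1.61% fell. The list's median log2 change was -0.23, beside 0.00 over all tested genes. Ctsd, the lysosomal protease cathepsin D, had 5261, 5489.7 and 3901 FPKM in S100a16+/- and 2474, 2558 and 2376 in WT, well apart, and rose by 1.04 log2 units (edgeR adjusted p = 0.0376, SE 0.17). Macrophage markers summed higher in the same libraries, led by Lyz2 and Marco, while the median log2 ratio of the 16 markers was -0.0021, 0.09 and 0.09 in S100a16+/- replicates 1 to 3; their part in the Ctsd level was not tested. Stc2, whose product stanniocalcin-2 inhibits the protease that cuts IGFBP-4, had 0.492, 0.580 and 1.01 FPKM in S100a16+/- and 1.97, 2.40 and 2.51 in WT. It fell by 1.67 on the log2 scale (edgeR adjusted p = 0.0392, SE 0.29). That protease gene, Pappa, was below the FPKM minimum, at 0.324, 0.337 and 0.0438 FPKM in S100a16+/- and 0.654, 0.903 and 0.826 in WT. Igfbp1, the insulin-regulated binding protein gene of hepatocytes, had 0.991, 1.07 and 12.1 FPKM in S100a16+/- and 7.23, 6.51 and 4.56 in WT (log2 change -0.34, edgeR adjusted p = 0.878). Like Alb, it was lowest in S100a16+/- replicates 1 and 2 and highest in replicate 3. Without S100a16+/- replicate 3, 3 genes of this list were higher and 5 lower, against the same 15.8% and 16.5% of all tested genes.

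A list of 31 other imprinted genes left out Igf2r, which was counted among the signalling genes above and rose. Of the 31, 19 were tested, none rose and 2 fell, where 2.85% of all tested genes rose and 1.61% fell. The list's median log2 change was -0.48, beside 0.00 over all tested genes. Cd81, a tetraspanin gene on the same chromosome as Igf2 and H19 (chromosome 7, 143052739 to 143067934), had 108, 115 and 135 FPKM in S100a16+/- and 175, 187 and 172 in WT. It fell by 0.52 on the log2 scale (edgeR adjusted p = 0.0449, SE 0.10). Peg10, a paternally expressed retrotransposon-derived gene, had 15.6, 12.4 and 12.7 FPKM in S100a16+/- and 23.8, 21.6 and 20.2 in WT, and fell by 0.64 on the log2 scale (edgeR adjusted p = 0.0439, SE 0.12). Plagl1, a zinc finger gene that regulates imprinted genes in the mouse, had a log2 change of -0.84 that did not pass (edgeR adjusted p = 0.0992). The non-coding RNA genes Meg3 and Rian of another imprinted domain were at 0.342 and 0.249 FPKM in S100a16+/- replicate 3 and between 1.44 and 3.04 FPKM in the other 5 libraries, the same library in which H19 was lowest. Without S100a16+/- replicate 3, 3 genes of the imprinted list were higher and 6 lower, against 15.8% and 16.5% of all tested genes. These calls of Igf2r, Ctsd, Stc2, Cd81 and Peg10 were lost when any library other than S100a16+/- replicate 3 was left out, and no gene of the 3 lists was then called.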

How the data were processed

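Messenger RNA was measured in 6 libraries, 3 per genotype. Per the labels' protocols, oligo(dT)-selected RNA went into strand-marked libraries with molecular identifiers. Tools in the submitters' processing notes are edgeR, DESeq2, StringTie 1.3.4d, UMI-tools, HISAT2 2.0.4 and cutadapt 1.9; no source used here gives their roles or the genome build. Per the file headers, the authors' table has 1 count column and 1 FPKM column per library. The deposited count values are unscaled whole numbers. The deposited FPKM values are relative to length and library size, and a placeholder in genes without counts was set to 0 here.

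Genes reaching 1 FPKM in 3 or more libraries entered an edgeR 4.0.16 quasi-likelihood fit of the counts (R 4.3.3, TMM scaling, genotype as the only term). Calls needed a Benjamini-Hochberg adjusted p under 0.05 over all genes tested. The SE is the log2 change over the square root of F. Genes below the minimum were described by an edgeR fit with no filter and by exact two-sided permutation tests. Alternatives were limma 3.58.1 on log2(FPKM + 1, 0.1 or 5), DESeq2 1.42.0, other scalings and filters, a replicate block, and each library left out. Library log2 ratios added 0.05 CPM. The edgeR step was tested on simulated data.

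The genes and lists were chosen with earlier results of these data known. Named were the 10 genes, S100a16, called members of 3 pathway lists, the 5 profiles most like Igf1 and 2 leading markers per cell type. Irs2, Ghr, Akt1, Mtor, Pappa, Igfbp1, Plagl1, Meg3, Rian, Des, Lrat, Xist, Ddx3y, Mir675, Polr2b and Gm49394 were named after their values were seen. Positions are as deposited. Libraries of 1 genotype differed by more than sampling noise, and each was counted as 1 sample.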

Additional observations from a re-analysis of the deposited data

How the results depend on the processing

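Over all 6 libraries the test called none of the 10 genes in either direction. No gene turned its direction under any alternative except Igf2, whose log2 change was 0.15 with Gm49394 added and 0.57 when S100a16+/- replicate 3 was also left out, both chosen after the data were seen. Higher calls among the 10 genes numbered 1 with DESeq2 (Igf1), and lower calls 2 (H19 and Igfbp4). DESeq2 called 8.85% of 12711 genes higher and 6.0% lower. Lower calls numbered 1 (Igfbp4) with library totals and with each limma fit (pseudocounts 1, 0.1 and 5). Of the 12766 tested genes, 252 were lower with library totals and 223 to 263 with limma. With each library left out in turn, higher calls ranged from 0 to 1 and lower calls from 0 to 4. The upper value in each case came without S100a16+/- replicate 3, where 15.8% of all tested genes were higher and 16.5% lower. With no FPKM filter and that library left out, chosen after the data were seen, 2 genes were higher and 4 lower. In that fit 6.51% of 27770 genes were higher and 7.35% lower.

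Across the table the counts were 364 higher and 206 lower. They were 282 and 252 with library totals, 1125 and 763 with DESeq2, 162 and 81 with no FPKM filter, 1807 and 2041 with no filter and without S100a16+/- replicate 3, and 20 to 1990 and 5 to 2076 with each library left out. With a mean FPKM of at least 5, 137 were lower. As shares of all genes tested, higher and lower counts were 8.85% and 6.0% with DESeq2. They were 15.8% and 16.5% without S100a16+/- replicate 3, and 6.51% and 7.35% with no filter and without that library. Of the signalling list, 3 were higher and 2 lower with DESeq2, 4 and 5 with no filter and without S100a16+/- replicate 3, and 0 to 5 and 0 to 7 with each library left out; 1 was lower with limma at a pseudocount of 5. Of the protease and regulator list, 2 were higher and 2 lower with DESeq2, 3 and 8 with no filter and without S100a16+/- replicate 3, and 0 to 3 and 0 to 5 with each library left out; 0 were lower with a mean FPKM of at least 5, as Stc2 was not tested. Of the imprinted list, 1 was higher and 5 lower with DESeq2, 2 and 7 with no filter and without S100a16+/- replicate 3, and 0 to 3 and 0 to 6 with each library left out. With no FPKM filter over 6 libraries, 0 genes of the 3 lists were called. The cause of these differences was not tested.

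The fit with the replicate number as a replicate block called 0 genes higher and 0 lower across the table, hence 0 in every list. Deviations of same-numbered libraries correlated at -0.153, 0.0483 and -0.0793, and no library correlated best with the same-numbered library of the other genotype. The numbers were therefore not taken to pair samples.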
